A study of Caenorhabditis elegans with 12 samples.

Results

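The 6 libraries described here measure what dis-3(L75Q) changed in worms that already carried eat-2(ad1116). They are 3 whole-body RNA libraries of eat-2(ad1116); dis-3(L75Q) double mutants (strain IJ2290) and 3 of eat-2(ad1116) single mutants (strain IJ173), chosen by genotype from the 12 libraries of the series, and all genes enter the comparison. The other 6 libraries, 3 of wild type (strain N2) and 3 of dis-3(L75Q) alone (strain VC40130), are used to fit the spread and to set the same allele beside it without eat-2(ad1116). All were Caenorhabditis elegans hermaphrodites, collected as prefertile adults from 3 independent harvests, kept at 20 °C on the bacterial food OP50. Both groups compared carry eat-2(ad1116). Each genotype was 1 strain, so effects of the allele and of anything else that differs between the strains cannot be told apart, and p-values measure the spread between harvests of 1 strain. In whole worms, fewer cells of a type and less RNA per cell cannot be told apart.

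Worms and other eukaryotes trim and destroy RNA from the 3′ end with the exosome, a complex of nucleus and cytoplasm in which DIS-3 is a catalytic ribonuclease. EAT-2 is a subunit of an acetylcholine receptor that drives pharyngeal pumping, and eat-2 mutants take in little food, which makes them a standard model of dietary restriction with a long lifespan. Worms on little food draw on stored fat: lysosomal lipases release fatty acids, carnitine carriers bring them into mitochondria, and the glyoxylate cycle turns their carbon into sugar. The Δ9 desaturases FAT-5, FAT-6 and FAT-7 make the monounsaturated fatty acids from which stored fat and membrane lipids are built.

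In the double mutant, genes of fat metabolism moved in both directions. The desaturase genes fat-7 and fat-5 rose 5.95-fold and 3.67-fold over eat-2(ad1116), and fat-6 fell 3.26-fold. The fasting-induced lipase genes lipl-1 and lipl-2 and the long noncoding RNA tts-1 fell, and the carnitine palmitoyltransferase gene cpt-3, the glyoxylate cycle gene icl-1 and the transporter gene pgp-1 rose. A stretch of chromosome V with 82 annotated genes held 3 counts in all in double mutants. Of 16259 genes tested, 57 passed (edgeR quasi-likelihood test, Benjamini-Hochberg adjusted p under 0.05), which is 0.351% of them, 25 higher (0.154%) and 32 lower (0.197%), and 49 of the 57 changed at least 2-fold. In all 57 the 3 double mutant libraries lay entirely above or below the 3 eat-2(ad1116) libraries, which held for 2009 genes in all (12.4%). At an unadjusted p under 0.05 there were 917 genes, where 5% of the genes tested is 813.

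The 12 libraries held 31812386 to 32773817 counts and 18236 to 18851 genes above 0. Among the 6 libraries compared, 1 stood apart. A stage score was formed by subtracting the mean log2 level of oocyte and eggshell genes from that of molting genes. It was -1.87 in eat-2(ad1116) replicate 1, against 0.96 and 1.01 in replicates 2 and 3 and 0.17, -0.33 and -0.37 in double mutants. No difference between the groups was detectable in this score (difference of -0.21, exact two-sided permutation test p = 1, smallest possible 0.1), but the eat-2(ad1116) group spread far more (SD 1.65 against 0.3). Outside this comparison the score was -2.98, -0.53 and -3.75 in wild type (SD 1.68) and 0.98, 0.57 and -1.56 in dis-3(L75Q) (SD 1.36). Such a spread was thus not particular to eat-2(ad1116). Without replicate 1 of eat-2(ad1116), 255 genes were called, 141 of them lower, and 55 of the 57 were among the 255. The transcript of dis-3 (chromosome IV, 10097202 to 10106523) measured 169, 153 and 159 CPM in eat-2(ad1116) against 161, 168 and 175 CPM with the allele (log2 0.06 ± 0.08 SE, adjusted p = 1). The allele is an amino acid exchange, so this level does not check the labels. For eat-2 itself (chromosome II, 14166878 to 14171658) the level was under 0.75 CPM in every one of these 6 libraries.

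CPM are counts scaled to library size and compare 1 gene between libraries, not genes with each other. The Δ9 desaturase gene fat-7 (chromosome V, 7151353 to 7153146) measured 76.6, 79.7 and 86.9 CPM in the eat-2(ad1116) libraries and 529, 456 and 461 in double mutants. Every double mutant library was more than 5 times as high as any eat-2(ad1116) library (log2 change 2.57 ± 0.15, adjusted p = 3.43e-05). For fat-5 (chromosome V, 17725004 to 17726818), which acts on palmitate, the libraries held 42.1, 37 and 34.1 CPM in eat-2(ad1116) and 128, 149 and 138 in double mutants, again without overlap (1.87 ± 0.17, adjusted p = 0.000706). The gene fat-6 (chromosome IV, 11913692 to 11915687), which like fat-7 acts on stearate, went the other way, from 371, 457 and 506 CPM to 139, 136 and 134 (-1.7 ± 0.14, adjusted p = 0.000498). The double mutant libraries of fat-6 were close together (136 ± 2.4 CPM, SD, n = 3), while the eat-2(ad1116) libraries ranged more widely (444 ± 68 CPM). The sequences of fat-6 and fat-7 are similar, so the counting may have split reads between them. Their summed level was 447, 537 and 592 CPM in eat-2(ad1116) and 668, 592 and 596 CPM in double mutants, with the lowest double mutant value level with the highest of eat-2(ad1116). These 3 were the only calls among 27 genes of fatty acid synthesis, elongation and desaturation, whose median log2 change was -0.03 (0 over all genes). The Δ12 desaturase gene fat-2 lay at 984 ± 110 and 1230 ± 50 CPM (log2 0.33, adjusted p = 0.71) and the elongase gene elo-1 at 225 ± 22 and 266 ± 5.3 CPM (0.24, adjusted p = 0.77). None of the 19 nuclear receptors and cofactors of fat metabolism was called by edgeR, DESeq2 or limma-voom or had an unadjusted p under 0.05 (0 in each). Their median log2 change was -0.1, with nhr-25 at -0.62 and sbp-1, the sterol-responsive transcription factor gene, at -0.26.

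**Figure D1:**
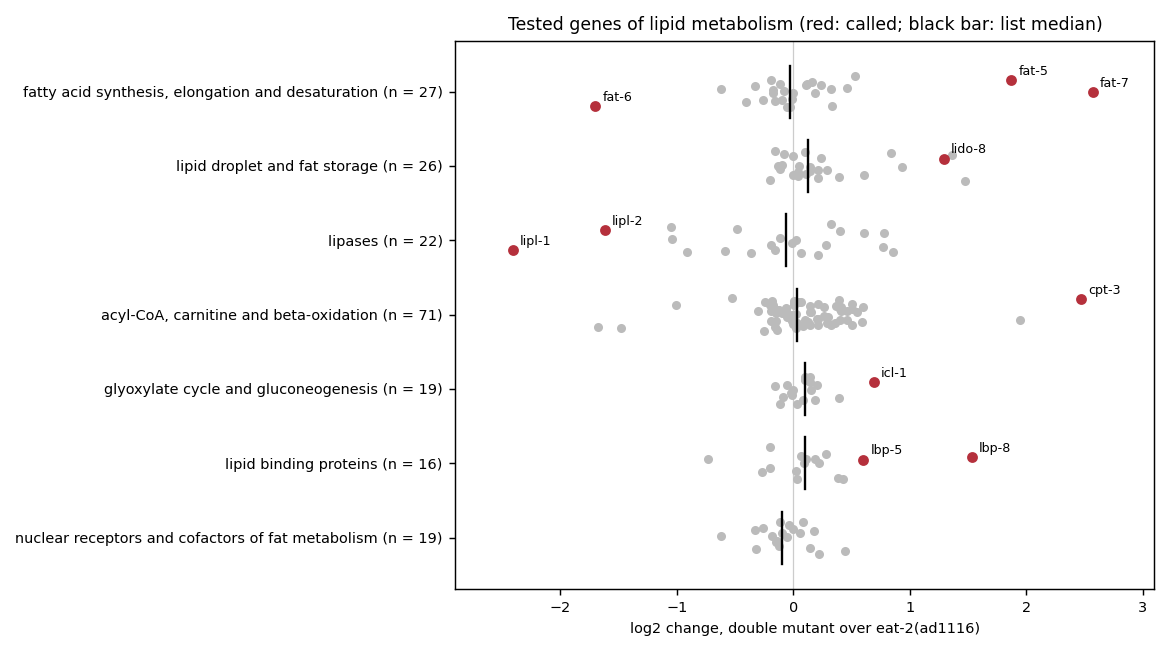
The log2 change of the double mutant over eat-2(ad1116) is plotted for each tested gene in 7 lists of lipid metabolism, with called genes in red and the list median as a black bar. The medians lie between -0.1 and 0.12 while single genes such as fat-7 (2.57) and lipl-1 (-2.41) lie far from them.

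Among genes that release fat, lipl-1 and lipl-2 fell. Both encode lipases of the lysosome that are known to be induced by fasting. The lipl-1 gene (chromosome V, 12919986 to 12921692) held 24.4, 37.4 and 42.2 CPM in eat-2(ad1116) and 5.46, 6.85 and 7.24 in double mutants (log2 -2.41 ± 0.25, adjusted p = 0.00128). The groups were far apart, and the level in the double mutant was still above the 1.29 ± 0.28 CPM of wild type. For lipl-2 (chromosome V, 9791567 to 9793241) the libraries gave 20.8, 23.6 and 25 CPM against 6.52, 7.44 and 8.55 (-1.62 ± 0.24, adjusted p = 0.0149), with wild type at 3.04 ± 0.91. The related gene lipl-3 lay at 26.3, 20 and 22.2 CPM against 9.2, 11.8 and 12, also without overlap, but missed the threshold (-1.05 ± 0.21, adjusted p = 0.0918). DESeq2 and limma-voom each called 3 of the 22 lipases lower. Besides lipl-1, lipl-2 and lipl-3, the other 19 were not called by edgeR. Among them lipl-4, whose overexpression is known to lengthen life, lay at 3.96 ± 0.97 and 7.16 ± 0.19 CPM (0.86, adjusted p = 0.569). The call of lipl-2 was lost without any 1 of the 5 libraries other than eat-2(ad1116) replicate 1 (highest adjusted p = 0.121), and that of lipl-1 was kept without each of the 6.

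Genes of fatty acid transport and use rose in single members. The cpt-3 gene (chromosome III, 2082819 to 2088314), of the family that carries fatty acids into mitochondria, went from 1.7, 0.971 and 0.747 CPM to 5.82, 6.97 and 6.31 (log2 2.47 ± 0.36, adjusted p = 0.014). Its relative cpt-4 lay at 32.3, 30.4 and 30.4 CPM in eat-2(ad1116) and 122, 120 and 118 in double mutants, a gap much wider than the spread in these 6 libraries, yet it did not pass (1.95 ± 0.37, adjusted p = 0.0735) in the fit over all 12. Of 71 genes for acyl-CoA, carnitine and beta-oxidation edgeR called only cpt-3, and the median log2 change was 0.03. DESeq2 called 2 of the 71 higher and 2 lower, and limma-voom 2 higher. The isocitrate lyase gene icl-1 (chromosome V, 724332 to 728004), of the glyoxylate cycle, rose from 353, 383 and 326 CPM to 591, 546 and 578 (0.69 ± 0.1, adjusted p = 0.0124). It was the one call among 19 genes of that cycle and of gluconeogenesis, where pck-1, the gluconeogenic carboxykinase gene, lay at 167 ± 40 and 184 ± 4.8 CPM. The lipid-binding protein genes lbp-8, whose product carries a lysosomal lipid signal to the nucleus, and lbp-5 rose. Their values were 0.547, 0.721 and 0.591 against 2.04, 2.12 and 1.23 CPM for lbp-8 (1.53 ± 0.27, adjusted p = 0.0439) and 36.8, 36.2 and 41.8 against 56.5, 62.6 and 54.9 CPM for lbp-5 (0.6 ± 0.11, adjusted p = 0.0495). These last calls were weak. That of lbp-5 was lost without each of the 6 libraries (highest adjusted p = 0.278), that of lbp-8 without each but double mutant replicate 3 (0.236), that of cpt-3 without each but eat-2(ad1116) replicate 1 (0.1), and that of icl-1 without eat-2(ad1116) replicate 3 or double mutant replicate 1 or 3 (0.0869).

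Of the genes linked to fat storage, lido-8 on chromosome II (2997021 to 3000653) rose. It held 25.4, 23.1 and 19.4 CPM in eat-2(ad1116) and 55.1, 54.9 and 55.7 in double mutants (log2 1.29 ± 0.13, adjusted p = 0.00136), and the double mutant libraries hardly differed from each other. Among 26 genes listed for lipid droplets and fat storage (median 0.12), DESeq2 called 3 higher, limma-voom 1 and edgeR only lido-8. Its relatives lido-10 (1.36 ± 0.29, adjusted p = 0.135) and lido-11 (0.93 ± 0.25, adjusted p = 0.344) had no overlap between groups but were not called. The diacylglycerol acyltransferase gene dgat-2, for the last step of fat synthesis, lay at 14, 27.6 and 32.3 CPM against 64.5, 71.5 and 68.2 CPM. That is 2.76 times as high in the mean, with the lowest value in the eat-2(ad1116) library that stood apart, and it was not called (1.47 ± 0.34, adjusted p = 0.191).

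Single genes of export and detoxification moved, again in both directions. The P-glycoprotein gene pgp-1 (chromosome IV, 12591704 to 12599169), for an ABC transporter of the intestine, rose from 36.7, 48.1 and 42.4 CPM to 105, 111 and 113 (log2 1.37 ± 0.16, adjusted p = 0.00253), and was the one call of 53 ABC transporter genes. The cytochrome P450 gene cyp-29A3 rose from 3.36, 5.99 and 6.25 CPM to 14.8, 15.7 and 13.9 (1.51 ± 0.26, adjusted p = 0.0439), 1 of 67 of its kind, and the UDP-glucuronosyltransferase gene ugt-21 from 12.2, 17.5 and 17.5 CPM to 37.7, 31.4 and 35.7 (1.15 ± 0.2, adjusted p = 0.0446), 1 of 65. Lower were the glutathione S-transferase gene gst-28, 1 of 41, and the flavin monooxygenase gene fmo-2, 1 of 5. The gst-28 libraries gave 20.4, 27.2 and 28.1 CPM against 11.2, 11.7 and 11 (-1.16 ± 0.14, adjusted p = 0.00455). For fmo-2, an enzyme that dietary restriction is known to induce and that lengthens life, they gave 3.06, 1.6 and 1.52 CPM against 0.396, 0.235 and 0.299 (-2.72 ± 0.41, adjusted p = 0.0188), and the double mutant thus lay near the wild-type mean of 0.356 ± 0.12. The median log2 changes of these 5 families lay between -0.07 and 0.03. The calls of cyp-29A3 and ugt-21 were lost without each library other than eat-2(ad1116) replicate 1 (highest adjusted p = 0.213 and 0.23), and that of fmo-2 without each double mutant library (0.146).

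The smallest p of all belonged to eri-12 (chromosome IV, 12156838 to 12164281), of the class of genes named for enhanced RNA interference. Its libraries held 72.3, 96.9 and 95.3 CPM in eat-2(ad1116) and 13.4 ± 1.3 (SD, n = 3) in double mutants, at most 14.8 CPM, a 6.6-fold fall (log2 -2.72 ± 0.14, adjusted p = 1.29e-05). No other of 54 genes for RNA interference and Argonautes was called. The RING-type ubiquitin ligase gene rnf-126 (chromosome I, 3021651 to 3028396) fell 5.86-fold, from 35.3, 28.4 and 25.4 CPM to 4.78, 5.35 and 5.08 (-2.55 ± 0.16, adjusted p = 5.16e-05). Another pair of genes of ubiquitin-dependent degradation fell by less. The cullin gene cul-5, the scaffold of a ubiquitin ligase, went from 75.7, 70.4 and 65.6 CPM to 47.5, 43.6 and 45.6 (-0.63 ± 0.08, adjusted p = 0.00768), and ufd-1, whose product helps the segregase CDC-48 extract ubiquitin-marked proteins, from 129, 121 and 131 CPM to 82.7, 90.7 and 85.1 (-0.56 ± 0.09, adjusted p = 0.0381). The 33 proteasome genes had 0 calls and a median of 0.09. Of the 33, 32 were positive (31 with library totals), against 8274 of 16259 over all genes tested. In 18 all double mutant libraries lay above all eat-2(ad1116) libraries and in 0 below, against 7.68% and 4.67% over all genes. The proteasome list thus lay slightly higher in double mutants, by small differences. The largest of those differences by p, for pas-4, was 79.9 ± 5.6 against 90.8 ± 3.3 CPM (0.19, adjusted p = 0.794). Without double mutant replicate 2 or 3 cul-5 was not called (highest adjusted p = 0.0685), and ufd-1 was not called without each library other than eat-2(ad1116) replicate 1 (0.23).

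The noncoding RNA tts-1 (chromosome X, 1504131 to 1504841), known for its high level in long-lived daf-2 mutants and its presence on their ribosomes, fell from 206, 160 and 215 CPM to 53.7, 74.3 and 72.6 (log2 -1.53 ± 0.18, adjusted p = 0.00279). The groups did not overlap, and the double mutant remained far above the 2.55 ± 0.58 CPM of wild type. It was the one noncoding RNA called. Of the classes that the exosome is known to process or degrade, 22 small nucleolar RNAs (median -0.15), 6 ribosomal RNA genes (-0.23) and 29 small nuclear RNAs (0.13) had enough counts, as did 60 long intergenic noncoding RNAs (0.06). Of these 117 genes edgeR called 0, DESeq2 called 1 and limma-voom 0, and 9 had an unadjusted p under 0.05. How RNA was selected for the libraries was not given in the sources used here. Short and unpolyadenylated RNAs may be poorly sampled. The 18 genes of the exosome and its cofactors had 0 calls with each of these tools and 0 with an unadjusted p under 0.05 (median 0). For exos-4.2 the values were 43 ± 6.9 and 37.1 ± 3.3 CPM, and for the exonuclease gene xrn-2 they were 69 ± 17 and 76.3 ± 2.4 CPM.

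Cuticle collagens supplied 4 calls, all higher, among 151 tested. For col-36 (chromosome II, 7167511 to 7168812) the eat-2(ad1116) libraries held 1 count in all (0, 0.0313 and 0 CPM) and the double mutant 970 (10.5, 10.2 and 8.34 CPM), a ratio of 974 with an exact 95% counting interval of 174 to 38500 (adjusted p = 0.000569). The col-123 gene (chromosome IV, 9821921 to 9823156) rose from 0.164, 0.0313 and 0.124 CPM to 2.96, 2.35 and 1.97 (log2 4.43 ± 0.41, adjusted p = 0.000706) and col-158 from 0.328, 1.35 and 0.84 CPM to 10.1, 7.77 and 6.49 (3.28 ± 0.53, adjusted p = 0.0293). The col-2 gene had no counts in eat-2(ad1116) and 2.59, 1.65 and 2.09 CPM in double mutants, at least 23.5-fold higher with a floor of 3 counts per library (adjusted p = 0.0342). Collagens as a list lay higher, with a median of 0.42 and 121 of 151 positive. Their summed level was 28200 to 43200 CPM in the eat-2(ad1116) libraries and 44700 to 47800 in double mutants, and 48 members lay higher in all double mutant libraries and 3 lower, against 7.68% higher and 4.67% lower over all genes. When the fit held the stage score, the median was 0.54, 131 of 151 were positive and 9 were called higher. The values also varied with single libraries. Without eat-2(ad1116) replicate 1, 8 collagens were called higher and 6 lower (median 0.71). Without replicate 3, or without any 1 double mutant library, 2 were called higher (median 0.26 without replicate 3). The call of col-158 was lost without eat-2(ad1116) replicate 3 and without each double mutant library (highest adjusted p = 0.183), and that of col-2 without each library other than eat-2(ad1116) replicate 1 (0.129).

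Marker lists of tissues and of the germ line gave few calls, and several moved with the library that stood apart. The 89 sperm genes had a median of 0.49 and 86 were positive, yet 0 were called by edgeR, DESeq2 or limma-voom and 2 had an unadjusted p under 0.05. Their summed level was 913 to 2530 CPM in eat-2(ad1116) and 1830 to 2230 CPM in double mutants, which overlap, and their median was 1.19 without eat-2(ad1116) replicate 1 and 0.22 without replicate 3. The 28 oocyte and eggshell genes had a median of 0.09, which was 1.06 without replicate 1 and -0.22 and -0.26 without replicates 2 and 3. The 6 yolk protein genes behaved alike (0.2, then 2.2, -0.16 and -0.2). Hypodermal genes, 0 of 17 called, had a median of 0.54, with the collagen gene dpy-13 at 675 ± 160 and 1220 ± 59 CPM and dpy-5 at 1090 ± 14 and 1720 ± 100 CPM. Median changes were -0.01 for body wall muscle, -0.07 for neurons, 0.04 for the germ line, 0.08 for molting and -0.28 for pharynx, with 0 called of 17, 19, 28, 40 and 16. Without eat-2(ad1116) replicate 1 these medians were -0.23, -0.26, 0.19, -0.06 and -0.46, without replicate 2 they were 0.11, 0.04, -0.04, 0.31 and -0.12, and without replicate 3 they were 0.1, -0.03, -0.05, 0.14 and -0.16. In the 17 intestinal genes fat-7 and pgp-1 were called and the median was 0.1. The defining genes of the main tissues were present in all 6 libraries, such as ges-1 of the intestine (56.7 to 88.6 CPM), myo-3 of body wall muscle (796 to 1290 CPM) and pgl-1 of the germ line (292 to 420 CPM), while only 3 of 16 genes of the zygotic embryo had enough counts to be tested.

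**Figure D2:**
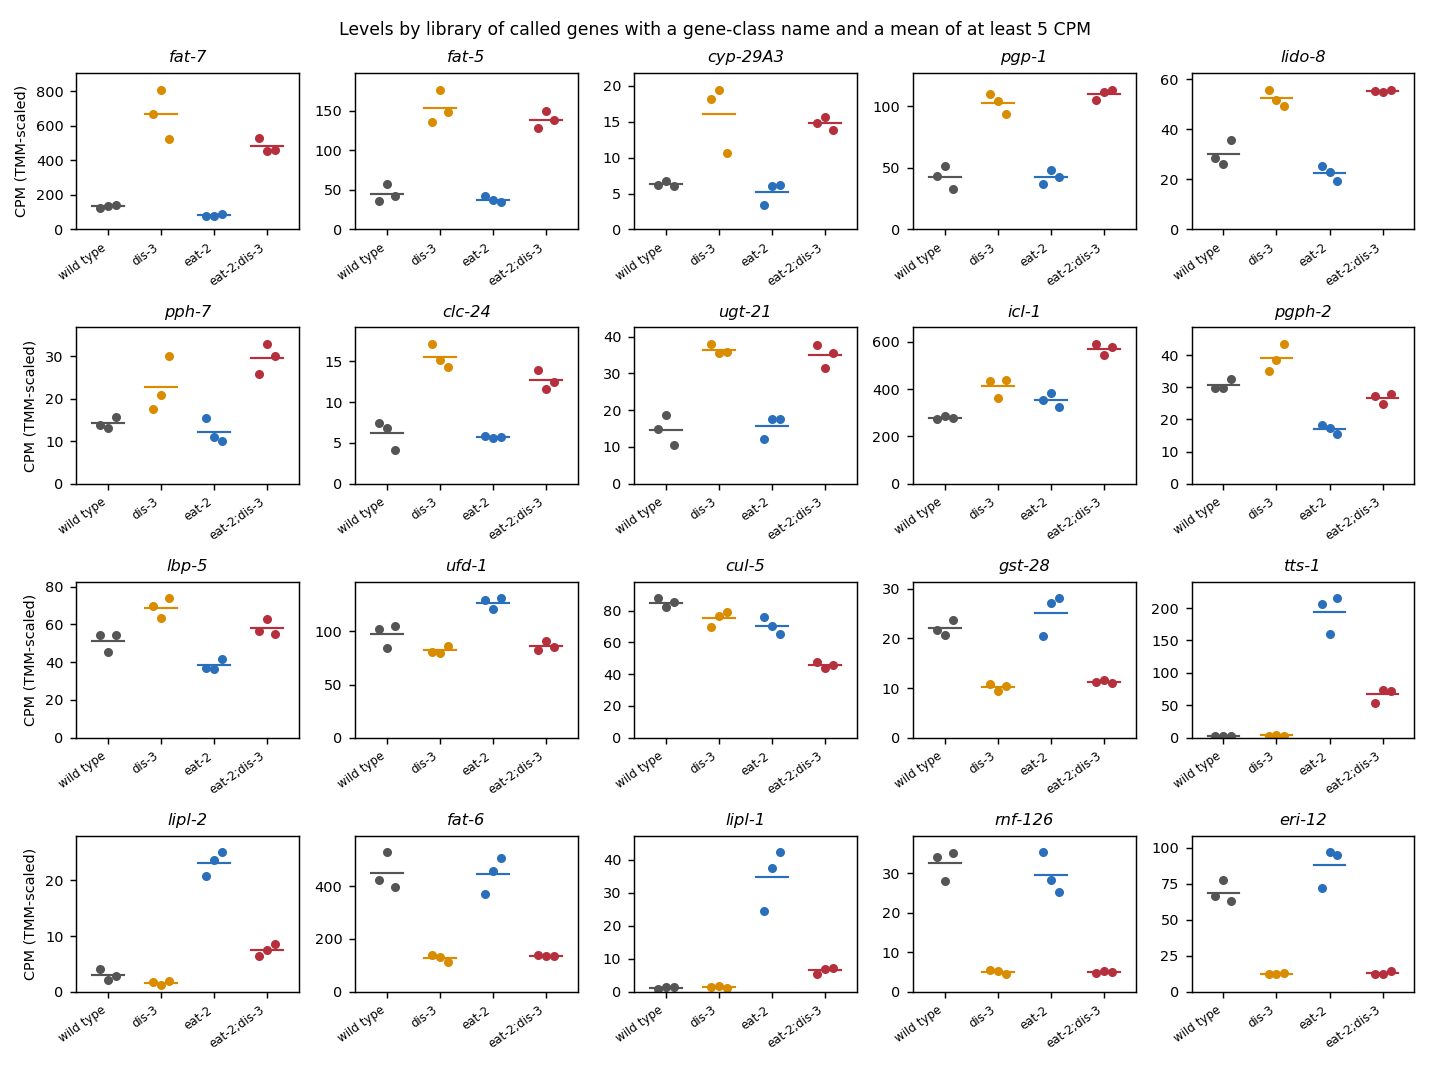
CPM in each library (points, 3 per genotype) and the mean (line) are shown for those 20 called genes that bear a gene-class name and average 5 CPM or more over the 6 libraries, ordered from the largest rise to the largest fall. In each panel the 3 double mutant points lie apart from the 3 eat-2(ad1116) points, and for tts-1, lipl-1 and lipl-2 wild type and dis-3(L75Q) are both low.

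A further 3 named genes of moderate level rose weakly. The pph-7 gene, named as a protein phosphatase, went from 15.4, 11.1 and 10.1 CPM to 25.9, 32.9 and 30.2 (log2 1.28 ± 0.22, adjusted p = 0.0432). The clc-24 gene went from 5.88, 5.55 and 5.66 CPM to 13.9, 11.6 and 12.5 (1.15 ± 0.2, adjusted p = 0.0439), and pgph-2 from 18.2, 17.3 and 15.4 CPM to 27.4, 24.8 and 27.9 (0.66 ± 0.11, adjusted p = 0.0439). All 3 lost their calls without each library other than eat-2(ad1116) replicate 1 (highest adjusted p = 0.239, 0.238 and 0.239). Outside the stretch of chromosome V, 16 called genes had no gene-class name. Those lower with the smallest p were C49A9.5 on chromosome IV (10.4, 14.8 and 17.3 against 1.49, 2 and 1.82 CPM, 7.99-fold), the pseudogene WBGene00010295 on chromosome V (6.12 ± 0.89 against 1.38 ± 0.34 CPM), M70.5 on chromosome IV (18.5 ± 1 against 8.54 ± 0.92 CPM) and F09C8.1 on chromosome X (18.5 ± 2.6 against 8.23 ± 0.81 CPM). Those higher were Y48G9A.11 on chromosome III (0.219, 0.0627 and 0.28 against 2.19, 1.71 and 2.33 CPM), C02B8.1 on chromosome X (0.385 ± 0.048 against 1.78 ± 0.5 CPM), H37A05.2 on chromosome V (0.462 ± 0.1 against 2.21 ± 0.31 CPM) and D1022.3 on chromosome II (2.43 ± 0.47 against 5.42 ± 0.38 CPM). The calls of F09C8.1, H37A05.2 and D1022.3 depended on single libraries (highest adjusted p without 1 library 0.065, 0.0861 and 0.133). Those libraries were double mutant replicates 2 and 3 for F09C8.1, eat-2(ad1116) replicates 2 and 3 and double mutant replicate 1 for H37A05.2, and eat-2(ad1116) replicate 2 and each double mutant library for D1022.3.

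Set beside wild type, some of the falls and rises took 2 forms. These are described here by their levels and were singled out after the values were seen. For 7 called genes outside the stretch, eat-2(ad1116) held at least 2 times the wild-type mean and the double mutant less than eat-2(ad1116). These were tts-1, lipl-1, lipl-2, fmo-2, F09C8.1, F49C12.7 and T28A11.19. The gene F49C12.7 lay at 15.2 ± 3.3 CPM in wild type, 34.3 ± 3.1 in eat-2(ad1116) and 14.6 ± 0.99 in double mutants. T28A11.19 lay at 0.28 ± 0.14, 6.42 ± 0.27 and 1.83 ± 0.56 CPM. For 8 genes called higher, eat-2(ad1116) was at no more than 0.5 times the wild-type mean. Of these Y48G9A.11 (1.75 ± 0.12, 0.187 ± 0.11 and 2.08 ± 0.33 CPM), its neighbour Y48G9A.6 (0.48 ± 0.16, 0 and 0.428 ± 0.17 CPM, at least 4.76-fold higher in double mutants) and C02B8.1 (2.19 ± 0.36, 0.385 ± 0.048 and 1.78 ± 0.5 CPM) are given in the order wild type, eat-2(ad1116) and double mutant, and lay near wild type in the last. The others were col-36, col-123, col-2, lbp-8 and Y46E12A.5. For col-36 and col-2 wild type was itself near 0 (1, 6 and 0 counts, and 0, 5 and 0), so their ratios to it mean little. Double mutants lay above wild type for col-36 (9.68 against 0.0739 CPM), col-2 (2.11 against 0.0528), col-123 (2.43 against 0.835) and Y46E12A.5 (2.49 against 0.983). For lbp-8 they lay near it (1.8 against 1.62 CPM). The eat-2(ad1116) libraries enter both sides of such a description, so it carries no test. The calls of T28A11.19 (highest adjusted p = 0.248), F49C12.7 (0.122) and Y46E12A.5 (0.24) were lost without each library other than eat-2(ad1116) replicate 1, and that of Y48G9A.6 without each but the first replicates (0.113).

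A stretch of chromosome V from 17339084 to 17551209 (212 kb in WBcel235) held the deepest falls. It was found by its values, as the one run of neighbouring tested genes without a count in any double mutant library. F-box proteins, which choose targets for ubiquitin ligases, and a Skp1-related adaptor for them are encoded there. The 16 tested genes of its 82 summed to 1756, 1868 and 1992 counts in the eat-2(ad1116) libraries and to 0, 0 and 0 in double mutants, and over all 82 the double mutant libraries held 0, 3 and 0 counts. Of the 16, 13 were called. The tested gene F47H4.2 (17353323 to 17360204) went from 415, 555 and 615 counts to 0 in each, at least 178-fold lower with the floor of 3 counts per library (adjusted p = 0.000569). Its neighbours Y20C6A.1 (230, 279 and 320 counts) and the F-box gene fbxa-189 (151, 152 and 187 counts) were at least 92.7-fold and 54.6-fold lower, and the pseudogene WBGene00007677 (3.36, 5.52 and 5.82 CPM) at least 54.6-fold. The Skp1-related gene skr-5 fell from 80, 95 and 79 counts, at least 28.3-fold. The F-box genes fbxa-188, fbxa-136, fbxa-176 and fbxb-7 had lower bounds of 21.2, 20, 9.52 and 10.1-fold. The 3 genes without a call also had no counts in double mutants. Of these lsy-27 was uneven in eat-2(ad1116), with 158 counts in replicate 1 and 9 and 5 in the others. Within the stretch fbxb-7 was lost without each library other than eat-2(ad1116) replicate 1 (highest adjusted p = 0.167), as was the pseudogene WBGene00009838 (0.0877). The call of fbxa-176 was lost without eat-2(ad1116) replicate 3 or any double mutant library (0.0901) and that of fbxa-136 without eat-2(ad1116) replicate 2 (0.0505).

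**Figure D3:**
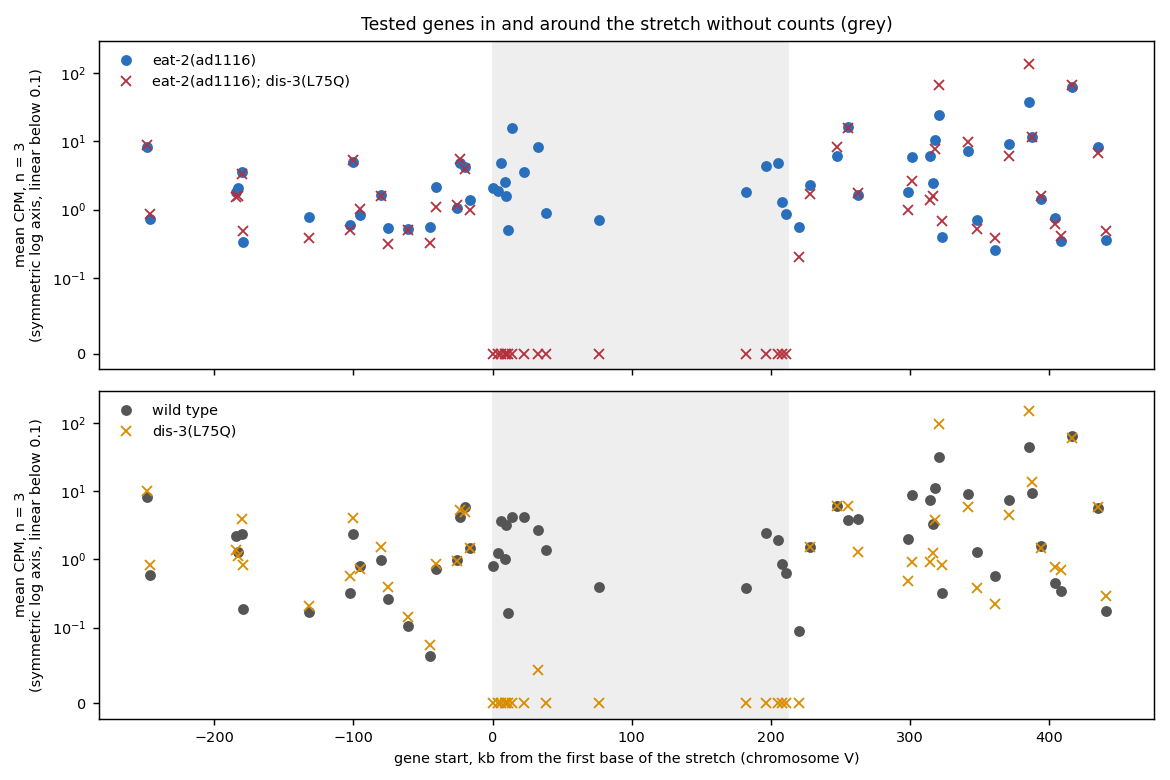
Mean CPM of tested genes is plotted on a symmetric log axis against the distance of the gene start from the first base of the stretch (grey), with eat-2(ad1116) and the double mutant above and wild type and dis-3(L75Q) below. All 16 tested genes inside are at 0 in double mutants, and tested genes outside it are mostly above 0 in each genotype.

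Around the stretch the counts returned. The nearest tested gene on the left, F31E9.3 (start 17322590), lay at 1.37 ± 0.25 CPM in eat-2(ad1116) and 0.98 ± 0.19 in double mutants, and on the right fbxa-172 (start 17559246) at 0.562 ± 0.14 and 0.201 ± 0.15 and C38D9.2 at 2.27 ± 0.45 and 1.72 ± 0.36, none of them called. About 100 kb further right 2 neighbours were called lower. The F-box gene fbxa-192 (17640672 to 17650527) fell from 5.77, 5.39 and 6.38 CPM to 2.44, 2.82 and 2.54 (log2 -1.17 ± 0.2, adjusted p = 0.0401), a call lost without each library other than eat-2(ad1116) replicate 1 (up to 0.234). The pseudogene WBGene00010295 (17653482 to 17655281) fell from 5.82, 5.42 and 7.12 CPM to 1.01, 1.65 and 1.5 (-2.14 ± 0.22, adjusted p = 0.00128). To their right lie the pseudogene WBGene00010294 (2.43 ± 0.19 against 1.58 ± 0.064 CPM, log2 -0.62, adjusted p = 0.466) and the F-box gene fbxa-108 (10.5 ± 2.3 against 7.79 ± 1.3 CPM, -0.42, adjusted p = 0.918), neither called. After them come dgat-2, which starts at 17660303, and further on fat-5. With the stretch, F-box and MATH-BTB genes had 6 of 238 lower and 0 higher (median -0.09), and 5 of the 6 lie inside it. Chromosome V held 30 of the 57 calls, which is 0.902% of its 3327 tested genes, and outside the stretch 17 of 3311 (0.513%). Chromosome IV followed with 12 of 2794 (0.429%), while chromosomes I, II, III and X held 3, 4, 5 and 3 (0.116%, 0.143%, 0.205% and 0.131%). On chromosome IV, all but C49A9.5 and M70.5 lie between 9308831 and 12879645, an interval that also holds dis-3. Among them are fat-6, eri-12, pgp-1, fmo-2, ugt-21, ufd-1, col-123 and col-2. The 5 on chromosome III (clc-24, Y46E12A.5, cpt-3, Y48G9A.11 and Y48G9A.6) lie between 1010037 and 2119158. These positions were noticed after the calls, and their cause was not tested.

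The same allele could be read without eat-2(ad1116) in dis-3(L75Q) against wild type, where 91 genes were called (0.56%), 52 higher (0.32%) and 39 lower (0.24%). The stage score differed more between these groups, at 0 ± 1.36 in dis-3(L75Q) against -2.42 ± 1.68 in wild type (difference 2.42, exact two-sided permutation test p = 0.2, smallest possible 0.1). With that score as a covariate 74 genes were called, 56 of them among the 91. The comparison shares no library with the one above, but anything that both strains with dis-3(L75Q) carry in common would show in each. Of 16243 genes tested outside the stretch, 7730 had the same sign there, 65 were called in the same direction and 14 in the opposite one. Of the 44 genes called outside the stretch, 38 had the same sign there, 21 were called in the same direction and 0 in the opposite one. The 25 that rose had a median log2 change of 1.53 in the eat-2(ad1116) background and 1.27 in wild type, and the 19 that fell had -1.53 and -1. Across these 44 genes, which are not independent, Pearson's r of the log2 changes was 0.813 and Spearman's rho 0.79. These values pool rises and falls. Among the 25 that rose r and rho were 0.699 and 0.509, and among the 19 that fell 0.465 and 0.382. Across all 16243 tested genes outside the stretch they were 0.108 and -0.0362. The genes were selected in the first background, so sizes there are favoured. Among the named genes called in both backgrounds were fat-7 (log2 2.57 ± 0.15 and 2.32 ± 0.15), fat-6 (-1.7 ± 0.14 and -1.81 ± 0.14), fat-5 (1.87 ± 0.17 and 1.76 ± 0.17), eri-12 (-2.72 ± 0.14 and -2.46 ± 0.14), rnf-126 (-2.55 ± 0.16 and -2.68 ± 0.16), pgp-1 (1.37 ± 0.16 and 1.27 ± 0.16) and gst-28 (-1.16 ± 0.14 and -1.12 ± 0.14). For these 7 the test of the difference gave adjusted p-values from 0.526 to 0.919, which does not show that the effects were equal. They were picked from a larger number of such genes. Others called in both differed more, such as fbxa-192 (difference 2.12 ± 0.29, adjusted p = 0.0374), col-123 (1.88 ± 0.53, adjusted p = 0.522) and lido-8 (0.49 ± 0.19, adjusted p = 0.522). The whole stretch was likewise near empty without eat-2(ad1116), with 1, 3 and 0 counts over its tested genes in dis-3(L75Q) and 1001, 847 and 953 in wild type.

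**Figure D4:**
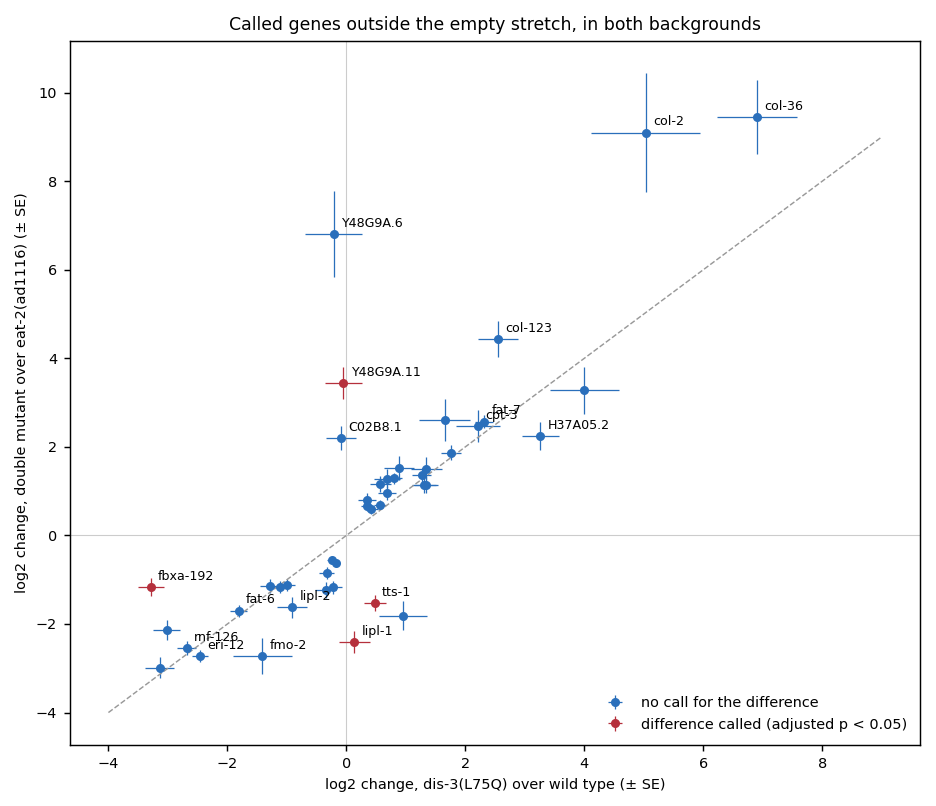
For the 44 called genes outside the stretch the log2 change in the eat-2(ad1116) background (y axis) is plotted against that in wild type (x axis), each with its SE, and the dashed line marks equal changes. The sign is the same on both axes for 38 of the 44, and the 4 red points (tts-1, lipl-1, fbxa-192, Y48G9A.11) are those whose difference was called.

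The difference between the backgrounds was called for 10 genes (0.0615%), 6 with a more positive change in eat-2(ad1116) (0.0369%) and 4 with a more negative one (0.0246%). Of the 10, 4 were also called within eat-2(ad1116). The lipl-1 gene fell there (log2 -2.41 ± 0.25) and lay at 1.29 ± 0.28 and 1.41 ± 0.27 CPM without eat-2(ad1116), in wild type and dis-3(L75Q) respectively, a difference of the log2 changes of -2.54 ± 0.36 (adjusted p = 0.0391). For tts-1 it was -2.01 ± 0.26 (adjusted p = 0.0338), with 2.55 ± 0.58 and 3.55 ± 0.3 CPM in those groups. Y48G9A.11 differed by 3.49 ± 0.48 (adjusted p = 0.0374), and fbxa-192 fell more in wild type than in eat-2(ad1116) (difference 2.12 ± 0.29, adjusted p = 0.0374). These 4 calls were lost when the fit held the stage score, at adjusted p-values of 0.0613 to 0.0631. The other 6 were level between the double mutant and eat-2(ad1116). For these, a trait of 1 strain and a dependence of the allele on background cannot be told apart. The gene hmt-1, for an ABC transporter of heavy-metal tolerance, held 64.2, 69.4 and 69.5 CPM in eat-2(ad1116) and 74.7, 71 and 68.3 in double mutants, which overlap, against 87.6 ± 3.2 in wild type against 9.32 ± 0.7 with dis-3(L75Q) alone (difference 3.31 ± 0.12). The scb-1 gene lay at 19.3, 26.9 and 26.9 CPM and at 22.6, 23.5 and 23.5, against 2.9 ± 0.66 and 18.9 ± 1.5 (difference -2.77 ± 0.26), so that wild type was low and the 3 mutant genotypes were high.

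Several groups of interest had no call within eat-2(ad1116). Of 49 gene lists 33 were without one. Their 1452 tested genes held 92 with an unadjusted p under 0.05, beside 917 of 16259 over all genes tested. Of the 1452, DESeq2 called 3 higher and 11 lower and limma-voom 2 lower. C-type lectins, many of them induced by infection, had 28 of 134 with an unadjusted p under 0.05 and a median of 0.04, and clec-4 lay just outside the threshold (35.1, 59.2 and 65.4 against 22.2, 25.7 and 25 CPM, log2 -1.13 ± 0.2, adjusted p = 0.0505). Autophagy and lysosome genes had 16 of 54, 11 of the 54 with a positive change and a median of -0.16. The proton pump gene vha-5 lay at 223, 348 and 363 CPM against 197, 187 and 186 CPM (-0.71 ± 0.18, adjusted p = 0.265) and the acid sphingomyelinase gene asm-2 at 21.5 ± 4.2 and 14 ± 0.49 CPM. Without eat-2(ad1116) replicate 1, 18 of these 54 were called lower. Among 30 DAF-16 targets, edgeR called tts-1 lower and icl-1 higher, and the median was -0.07. DESeq2 called 5 of the 30 lower and 1 higher, and limma-voom 1 lower and 1 higher. Without overlap between the groups, 9 lay lower and 3 higher, against 4.67% and 7.68% over all genes. Regulators of dietary restriction and nutrient sensing (32 genes, median -0.11), the heat shock (18, 0.07), mitochondrial (14, -0.03) and endoplasmic reticulum (19, 0.01) stress responses and insulin-like peptides (24, 0.03) had 0 calls. For the machinery of translation, medians were 0.02 for 83 cytosolic ribosomal proteins, 0.01 for 70 mitochondrial ones and -0.01 for 34 genes of ribosome biogenesis. They were 0 for 46 translation factors and 0.02 for 32 aminoacyl-tRNA synthetases. These medians moved with single libraries. For cytosolic ribosomal proteins the median was -0.16 without eat-2(ad1116) replicate 1, with 8 of 83 positive. Without replicates 2 and 3 it was 0.07 and 0.11, with 75 and 80 positive. In oxidative phosphorylation (46, 0.01), histones (75, -0.09), nuclear hormone receptors (201, -0.09) and neuropeptides (95, -0.09) edgeR likewise called 0.

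Which genes were called depended on the setting for 38 of the 57. That 0 changed sign in any alternative is little check, since the groups of all 57 did not overlap. In every alternative that gave a value, 19 stayed called. Outside the stretch these were fat-5, fat-6, fat-7, eri-12, rnf-126, pgp-1, lido-8, lipl-1, tts-1, col-36, col-123, C49A9.5 and WBGene00010295, and 6 lay inside it. Leaving out single libraries lost 31 of the 57 at least once and kept 26.

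**Figure D5:**
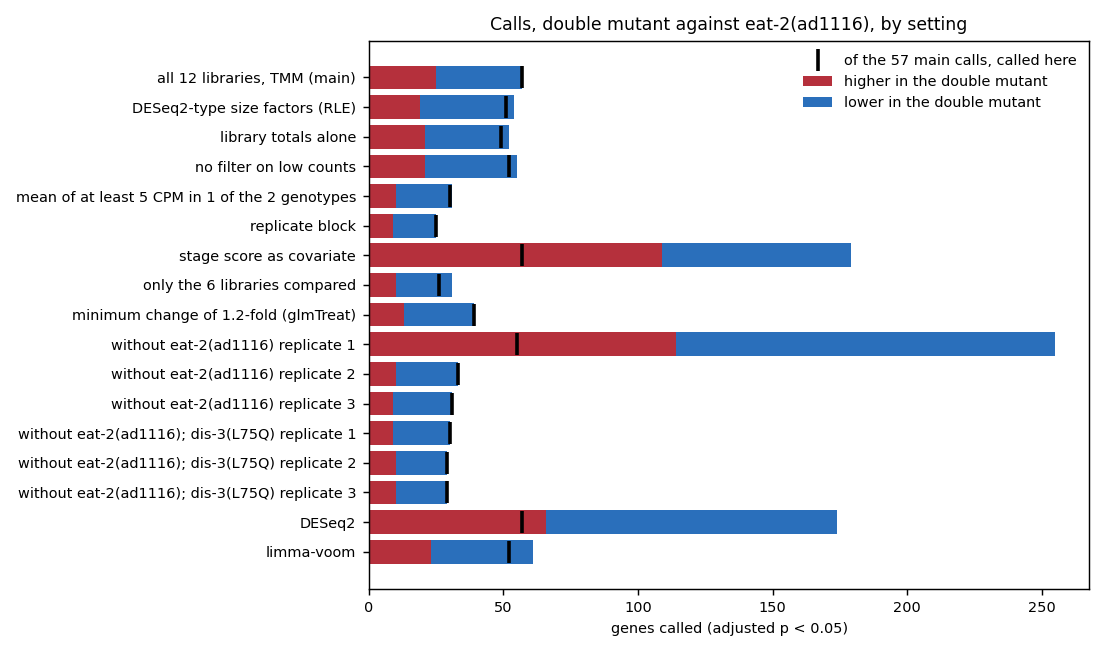
The number of genes called (x axis) between double mutant and eat-2(ad1116) is shown for each setting (y axis), split into higher (red) and lower (blue), with a black mark for how many of the 57 were called there. Counts range from 25 to 255, and the largest is that without eat-2(ad1116) replicate 1.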

How the data were processed

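The authors deposited 1 file per library with an expected count per gene, per the file headers, which is RSEM's estimate of fragments with no scaling by library or gene size. STAR 2.7.0e, RSEM 1.3.1 and the builds WBcel235 and ce11 stand in the submitters' processing notes. What annotation was counted, whether reads were trimmed and how strand was treated were not given in the sources used here. Values of overlapping and antisense genes are therefore uncertain. Between 93.4% and 93.8% of values above 0 were exactly whole (tolerance 0), and all were rounded to whole numbers. Names and 1-based coordinates came from Ensembl release 115 of WBcel235, which matched 46924 of 46934 entries.

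The test was edgeR's robust quasi-likelihood test (edgeR 4.0.16, R 4.3.3; TMM scaling with factors of 0.9284 to 1.139, filterByExpr by genotype, 12 libraries in 1 fit with genotype alone). Calls are those of edgeR unless another tool is named. All p-values are two-sided, and log2 changes are given ± SE and levels as mean ± SD over 3 libraries. Intervals and floors cover counting error only. No 2 libraries of a genotype agreed within sampling noise. Replicate numbers are not stated to mark shared harvests.

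Alternatives were RLE size factors, library totals, DESeq2 1.42.0, voom of limma 3.58.1, 2 other filters, the 6 libraries alone, a replicate block, the stage score as a covariate, stricter thresholds and each library left out. On simulated counts for this comparison (16259 genes, 50 per size) the test recovered 6% of 1.5-fold, 36% of 2-fold, 78% of 4-fold and 88% of 8-fold changes, with 2 false calls among 106. Counts were drawn independently for each gene, without a library that stood apart, so these rates may not hold for the data. Plots used matplotlib 3.10.9.

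The comparison, gene lists and naming rule were chosen with earlier results of these data known. Named were dis-3, eat-2, called genes with a gene-class name (library values for those at a mean of at least 5 CPM), the 4 with the smallest p in each direction among other called genes outside the stretch, the 4 with the most counts in it, up to 3 called members of each list or else up to 2 with the smallest p, and up to 4 genes called for the difference. Other genes were chosen after their values were seen.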

Additional observations from a re-analysis of the deposited data

Results flagged for a closer look

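For 10 genes the change with dis-3(L75Q) differed between the eat-2(ad1116) and wild-type backgrounds (edgeR test of the difference, adjusted p under 0.05). Each genotype was 1 strain, so a trait of a single strain cannot be told apart from a dependence of the allele on background. The difference of the log2 changes (eat-2(ad1116) background minus wild type) was 3.31 for hmt-1, 3.54 for T24C12.3, 1.43 for C09D4.4 and 0.98 for let-355, which were lower in dis-3(L75Q) alone and level between the double mutant and eat-2(ad1116). T24C12.3 lay at 3.4 ± 0.31 CPM with dis-3(L75Q) alone, against 40.8 ± 4.8 for wild type, 34.5 ± 11 for eat-2(ad1116) and, for double mutants, 33.5 ± 3. The genes C09D4.4 and let-355 are neighbours on chromosome I (5479488 to 5484661 and 5472325 to 5479438). It was -2.77 for scb-1, which was low in wild type and high in the other 3 genotypes, and -1.22 for T10D4.6, which was higher in dis-3(L75Q) alone, at 35.8 ± 2.3 CPM against 15.5 ± 0.78 for wild type, 16.3 ± 0.8 for double mutants and 14.1, 16.6 and 18.5 CPM for eat-2(ad1116).

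The remaining 4 changed within eat-2(ad1116). It was -2.01 for tts-1 and -2.54 for lipl-1, which are high in eat-2(ad1116) and fell there, 3.49 for Y48G9A.11, which is low in eat-2(ad1116) and rose there, and 2.12 for fbxa-192, which fell in both backgrounds. Of the 10, 4 were also called with a replicate block, 5 with the stage score as a covariate, 9 with RLE size factors and 10 with DESeq2. The 5 kept with the stage score were hmt-1, T24C12.3, scb-1, C09D4.4 and let-355. Why these genes differ between backgrounds was not tested.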

How the results depend on the processing

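All 57 genes called between double mutant and eat-2(ad1116) kept their sign in each alternative. Their groups did not overlap, so leaving out a library could hardly reverse a sign. The number of genes called varied. It was 54 with RLE size factors, 52 with library totals, 55 without a filter, 61 with limma-voom, 39 against a minimum of 1.2-fold and 49 at 2-fold or more. It moved by over 1.5 times to 31 with a minimum of 5 CPM (11047 genes tested), 31 in a fit of the 6 libraries, 28 at an adjusted p under 0.01, 174 with DESeq2 and 179 with the stage score as a covariate, the last 2 with all 57 among them. Leaving out 1 library gave 29 to 255 calls. It gave 255 without eat-2(ad1116) replicate 1, 33 and 31 without replicates 2 and 3, and 30, 29 and 29 without double mutant replicates 1, 2 and 3. The share called higher was 25 of 57, and 19 of 54 with RLE size factors. For dis-3(L75Q) against wild type the 91 calls became 30 in a fit of its 6 libraries and 338 with DESeq2. For the difference between backgrounds the 10 became 52 with DESeq2. Genes of any list made up 27 of the calls, 26 with library totals and 73 with the stage covariate. The cause of these moves was not tested. The stage difference of -0.21 ranged from -1.17 to 0.27 without single libraries.

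The replicate block left 25 calls (all among the 57) within eat-2(ad1116), 62 in wild type and 4 for the difference. Same-numbered libraries did not consistently deviate together (9 of 18 pairs with r over 0.1, range -0.826 to 0.54, and -0.57, -0.318 and -0.3 between the groups compared here). With 3 libraries per genotype, this check cannot show whether the numbers mark shared harvests.

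Many changes under 2-fold may have been missed, as 6% of 1.5-fold and 36% of 2-fold changes were recovered in simulation. The simulated counts held no library that stood apart over many genes, as eat-2(ad1116) replicate 1 did. Recovery in the data themselves may therefore differ. Of the calls, 8 were below 2-fold.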

Other observations

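Genes just outside the threshold include ifbp-1 (8.91, 14.7 and 13.3 CPM in eat-2(ad1116), 23, 23.6 and 27.6 in double mutants, log2 1.01 ± 0.19, adjusted p = 0.0688) and semo-1 (102, 195 and 206 against 76.7, 69.6 and 69.8 CPM, -1.22 ± 0.24, adjusted p = 0.0899). The gene hrpf-1, for a heterogeneous nuclear ribonucleoprotein that binds RNA, had a small and even difference (76.7, 81.5 and 82.9 against 56, 56 and 56.7 CPM, -0.52 ± 0.09, adjusted p = 0.0555), and so had hpo-15 (44.4, 51.9 and 48.7 against 29.5, 33.2 and 33 CPM, -0.6 ± 0.11, adjusted p = 0.0688). For both, wild type (56.4 and 52.1 CPM) and dis-3(L75Q) (51.7 and 52.3 CPM) lay close together. The long intergenic noncoding RNA linc-21 lay at 0.93, 0.407 and 0.965 CPM against 2.96, 2.65 and 1.59 CPM (1.63 ± 0.32, adjusted p = 0.0868).

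In the enoyl-CoA hydratase family, ech-9 lay at 11.4 ± 0.79 CPM in eat-2(ad1116) and 3.57 ± 0.45 in double mutants (log2 -1.68, adjusted p = 0.185), and the acyl-CoA dehydrogenase gene acdh-2 at 13.5 ± 2.5 and 4.83 ± 1.1 CPM (-1.48, adjusted p = 0.153). Neither pair of groups overlapped in the libraries. All of these were chosen after their values were seen and carry no call.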
